A study of Mus musculus with 48 samples.

Results

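The comparison set 6 libraries of ventral hippocampus labelled KO against 6 labelled WT, 12 of the 48 libraries in the series, and covered every gene in the count table. Libraries were chosen by their labels alone. The KO label stands for the strain 129/Sv-Cyp2e1tm1Gonz/J, a line made to lack Cyp2e1, with 3 female and 3 male libraries. The WT label stands for 129S1/SvImJ, also with 3 female and 3 male libraries. All mice were 16 weeks old, kept on normal chow, and no treatment is labelled. The strain names differ beyond the targeted gene, so the 2 labels can differ at linked or unlinked strain variants as well as at Cyp2e1, and these cannot be told apart here. Messenger RNA was selected on poly-T beads and sequenced in bulk. In bulk tissue, fewer cells of a type and less RNA per cell cannot be told apart. The labels do not say whether each library came from a separate animal, so p-values measure the spread between these libraries.

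Cyp2e1 encodes a cytochrome P450 of the endoplasmic reticulum that oxidises ethanol, acetone and many small xenobiotics, and it is most abundant in liver. The ventral hippocampus is the pole of the hippocampus linked with anxiety and stress responses. It holds the same CA and dentate fields as the dorsal pole but has its own regional marker genes. Glo1, a second enzyme that recurs below, is glyoxalase 1, which uses glutathione to clear the reactive aldehyde methylglyoxal, and its level in mouse brain is known to vary between inbred strains.

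Across 17388 genes with enough counts to test, 13 genes passed an adjusted p of 0.05 between the labels, which is 0.0748% of genes tested. Of these, 8 were higher in KO-labelled libraries (0.046%) and 5 were lower (0.0288%). At an unadjusted p under 0.05 there were 756 genes (4.35%), of which 494 were higher (2.84%) and 262 lower (1.51%). The median log2 change over all genes tested was 0.0025, and 90% of the genes lay between the 5th percentile of -0.28 and the 95th percentile of 0.41. All 13 called genes had the same sign in females and in males. They were called on both sexes together, which favours equal signs, so this is a description. The 6 KO-labelled and 6 WT-labelled libraries did not overlap in level for 43 genes (0.247% of those tested), 23 of them higher and 20 lower in KO-labelled libraries. Tests were edgeR's quasi-likelihood F test with sex as a covariate and Benjamini-Hochberg adjustment, and levels are CPM, each library's counts scaled to a common size with TMM factors.

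**Figure D1:**
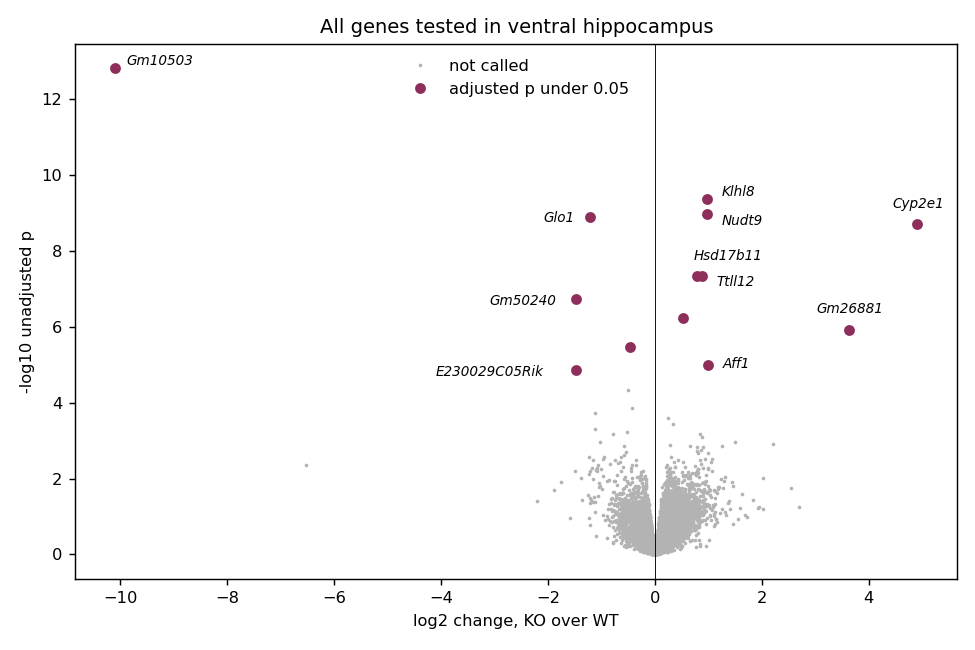
Every gene tested, with its log2 change of KO-labelled over WT-labelled ventral hippocampus on the horizontal axis and the negative log10 of its unadjusted p on the vertical axis. The 13 genes with an adjusted p under 0.05 are the large points, 8 to the right of 0 and 5 to the left, and 11 of them carry their names.

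KO-labelled libraries held 15641852 to 20944084 counts, and WT-labelled libraries 15398985 to 16071327. The hippocampal markers were present in all 12 libraries, and the summed level of the 9 CA1 markers was 618 to 979 CPM in KO-labelled and 676 to 1053 CPM in WT-labelled libraries. RNA of other regions stood out in single libraries. Gabra6, the granule-cell GABA-A receptor subunit of cerebellum, reached 327 CPM in male KO 3, against 308 CPM in male WT 1 and 180 CPM in male WT 2. It was 30.3 CPM in female KO 1 and at most 3.99 CPM in the other 8 libraries. Ttr, the choroid plexus thyroxine carrier, was 517 CPM in male KO 3 and 484 CPM in male WT 1, and at most 1.32 CPM elsewhere. The serotonin-neuron genes Tph2 and Slc6a4 were 67.7 and 45.7 CPM in male KO 1, and at most 1.37 and 0.499 CPM in the others. Without male KO 3, male WT 1 and male WT 2 the label comparison called 12 genes, 11 of them among the 13, and without male KO 1 as well it called 13, again with 11 shared. Leaving out those 3 keeps male WT 3 as the only male WT-labelled library, so values below without them rest on it for that group. Female KO 1 stays in, and the labels were then less alike in RNA of other regions. The median log2 change of the cerebellar granule list was 0.07 with 12 libraries and 0.73 without the 3. That of the choroid plexus and ependyma list was 0.15 with 12 libraries and 0.74 without the 3. Leaving out male KO 1 too keeps male KO 2 as the only male KO-labelled library. The labels' extraction text speaks of liver, yet of 13 liver markers Fgb, Cyp3a11 and Cyp2c29 had no count in any of the 12 libraries. The 2 that could be tested were Ttr and Trf, which brain makes itself.

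**Figure D2:**
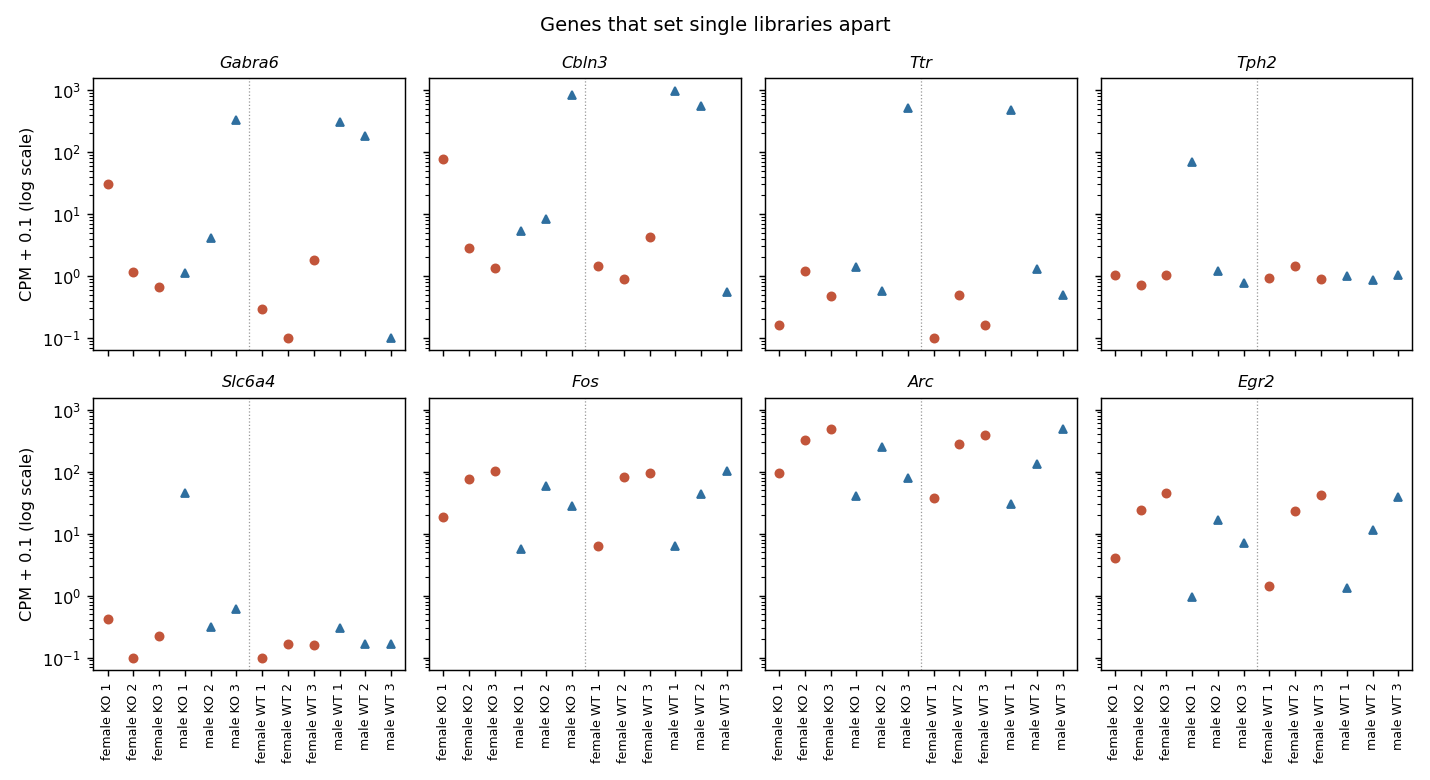
CPM plus 0.1 on a log scale for 8 genes in each library, with KO-labelled libraries left of the dotted line and WT-labelled libraries right of it, circles for females and triangles for males. Gabra6 and Cbln3 are high in male KO 3, male WT 1 and male WT 2, while Tph2 and Slc6a4 are high in male KO 1.

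Cyp2e1 was the gene the line was made to lack, and its level ran against the labels. In KO-labelled libraries it had a lowest level of 3.55, a median of 4.26 and a highest of 5.97 CPM, against 0.0621, 0.0972 and 0.394 CPM in WT-labelled libraries. Every KO-labelled library was above every WT-labelled one. Summed over the 6 libraries each, this was 504 counts against 14 for the WT label, a ratio of 31.2 with a 95% counting interval of 18.4 to 57.5. The fitted log2 change was 4.91 ± 0.34 (SE, n = 6 per label; edgeR, adjusted p = 6.8e-06). Per kilobase of its 2158-base model the level was 2.17 CPM in KO-labelled and 0.07 CPM in WT-labelled libraries. Counts per gene do not show whether a KO-labelled transcript holds the targeted part of the gene, so the libraries are called by their labels throughout. None of the 55 other tested genes within 1 Mb of Cyp2e1 was called.

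Promoters of 5 called genes are shown because Cyp2e1 had the largest rise, Aff1, Hsd17b11 and Nudt9 rose together from neighbouring positions, and Glo1 was the most abundant gene that fell. Each is the 300 bases from 250 before to 50 after the RefSeq start site, in build GRCm38.p6, taken from the gene's own strand (for Aff1, the more upstream of 2 entries). Capitals mark 4 motifs, each searched on both strands. The first is the TATA box, spelled TATAAA, which places the start site of many regulated genes. The next is the GC box, spelled GGGCGG, where Sp1-family factors bind, and where GC boxes overlap the capitals run on. The last pair are the CCAAT box, bound by NF-Y, and the E-box of basic helix-loop-helix factors, spelled CACGTG.
Cyp2e1 (chr7:140763569-140763868, plus strand): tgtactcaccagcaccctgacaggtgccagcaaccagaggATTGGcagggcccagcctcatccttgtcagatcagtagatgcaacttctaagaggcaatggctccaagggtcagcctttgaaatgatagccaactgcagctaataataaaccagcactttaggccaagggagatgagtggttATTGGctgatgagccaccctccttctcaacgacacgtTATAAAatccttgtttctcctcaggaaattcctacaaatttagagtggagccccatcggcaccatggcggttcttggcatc
Aff1 (chr5:103753912-103754211, plus strand): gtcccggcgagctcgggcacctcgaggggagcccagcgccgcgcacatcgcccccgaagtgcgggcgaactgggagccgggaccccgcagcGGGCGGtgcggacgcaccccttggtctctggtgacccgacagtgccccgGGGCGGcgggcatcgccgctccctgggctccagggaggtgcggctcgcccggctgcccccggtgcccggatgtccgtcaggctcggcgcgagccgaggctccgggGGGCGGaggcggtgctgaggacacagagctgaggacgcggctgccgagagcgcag
Hsd17b11 (chr5:104021747-104022046, minus strand): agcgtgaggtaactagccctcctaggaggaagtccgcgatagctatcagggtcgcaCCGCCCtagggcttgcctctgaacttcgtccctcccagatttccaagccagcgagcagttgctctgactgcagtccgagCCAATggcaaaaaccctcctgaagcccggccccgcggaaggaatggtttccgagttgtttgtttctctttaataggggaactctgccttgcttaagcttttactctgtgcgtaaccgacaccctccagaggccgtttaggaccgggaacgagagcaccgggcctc
Nudt9 (chr5:104046614-104046913, plus strand): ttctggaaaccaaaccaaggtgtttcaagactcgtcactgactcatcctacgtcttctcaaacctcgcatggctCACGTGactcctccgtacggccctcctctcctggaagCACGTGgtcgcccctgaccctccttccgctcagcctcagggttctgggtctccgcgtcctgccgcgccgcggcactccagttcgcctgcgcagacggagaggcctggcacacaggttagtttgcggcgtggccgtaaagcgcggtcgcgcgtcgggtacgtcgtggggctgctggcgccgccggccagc
Glo1 (chr17:30612610-30612909, minus strand): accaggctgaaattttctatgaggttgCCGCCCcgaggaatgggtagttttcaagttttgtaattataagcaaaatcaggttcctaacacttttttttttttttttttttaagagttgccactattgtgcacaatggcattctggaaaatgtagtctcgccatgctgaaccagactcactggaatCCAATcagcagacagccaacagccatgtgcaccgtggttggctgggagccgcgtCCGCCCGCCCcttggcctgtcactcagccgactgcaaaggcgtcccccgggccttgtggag
The Cyp2e1 window held a TATA box that begins 31 bases before the start site, and 2 reversed CCAAT boxes. Of 32851 RefSeq promoters of this length, 13.6% hold that TATA box, 37.4% the CCAAT box, 35.7% the GC box and 7.15% the E-box. The 3 chromosome 5 windows shown had no motif in common to all of them. Klhl8, a called gene between Aff1 and Hsd17b11, had no entry among these promoters and was not searched. Aff1 had 3 GC boxes, Hsd17b11 had a GC box and a CCAAT box, and Nudt9 had 2 E-boxes.

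The 4 genes of a run on chromosome 5 were each higher in KO-labelled libraries (mm39 positions below). Klhl8, Nudt9 and Aff1 were near double, and Hsd17b11 was 1.73 times the WT level. Klhl8, at 104009839 to 104059125, encodes a kelch-repeat protein of the family that recruits substrates to cullin ubiquitin ligases. Its lowest, median and highest levels were 73.1, 75.4 and 77.6 CPM in KO-labelled libraries, against 34.6, 37.9 and 42.7 CPM in WT-labelled libraries. The groups did not overlap, and the log2 change was 0.97 ± 0.06 (SE, n = 6 per label; edgeR, adjusted p = 3.8e-06).

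Nudt9, at 104194172 to 104213245, encodes a mitochondrial ADP-ribose hydrolase. It had 84.0, 85.9 and 102 CPM as its lowest, median and highest levels in KO-labelled libraries, against 41.0, 44.4 and 48.5 CPM in WT-labelled libraries. Female KO 3 was the highest library, and the log2 change was 0.98 ± 0.06 (SE; edgeR, adjusted p = 5.4e-06). Hsd17b11, at 104137628 to 104169785, encodes a lipid-droplet 17-beta-hydroxysteroid dehydrogenase. Its levels were 73.4, 80.8 and 96.2 CPM in KO-labelled libraries, against 44.7, 46.6 and 51.8 CPM in WT-labelled libraries. The lowest KO-labelled library lay above the highest WT-labelled one, with a log2 change of 0.79 ± 0.07 (SE; edgeR, adjusted p = 0.00011).

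Aff1, at 103840240 to 104003188, encodes a scaffold of the super elongation complex, which releases paused RNA polymerase. It ranged more widely, from 36.1 over a median of 41.0 to 68.7 CPM in KO-labelled libraries, against 17.1, 20.1 and 32.3 CPM in WT-labelled libraries. The highest library under each label was one with cerebellar markers, male KO 3 and male WT 1. The log2 change was 1.00 ± 0.14 (SE; edgeR, adjusted p = 0.015), and it was 1.06 with the 3 cerebellar-marker libraries left out (edgeR, adjusted p = 8.48e-05). Leaving out any one of female KO 2, female KO 3, female WT 1, female WT 3 or male WT 2 took the adjusted p above 0.05, to between 0.052 and 0.069. Beyond the run, the next gene Sparcl1, an abundant astrocyte matrix protein, averaged 2062 ± 160 CPM in KO-labelled and 2034 ± 84.1 CPM in WT-labelled libraries (SD, n = 6 each) and was not called. Of the 11 tested genes in the list of Aff1 neighbours, which was drawn up with these results known, the 4 above were called and 7 were not. Among those 7, Spp1 had a log2 change of 0.32 ± 0.27 and Ptpn13 one of -0.07 ± 0.12 (SE).

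**Figure D3:**
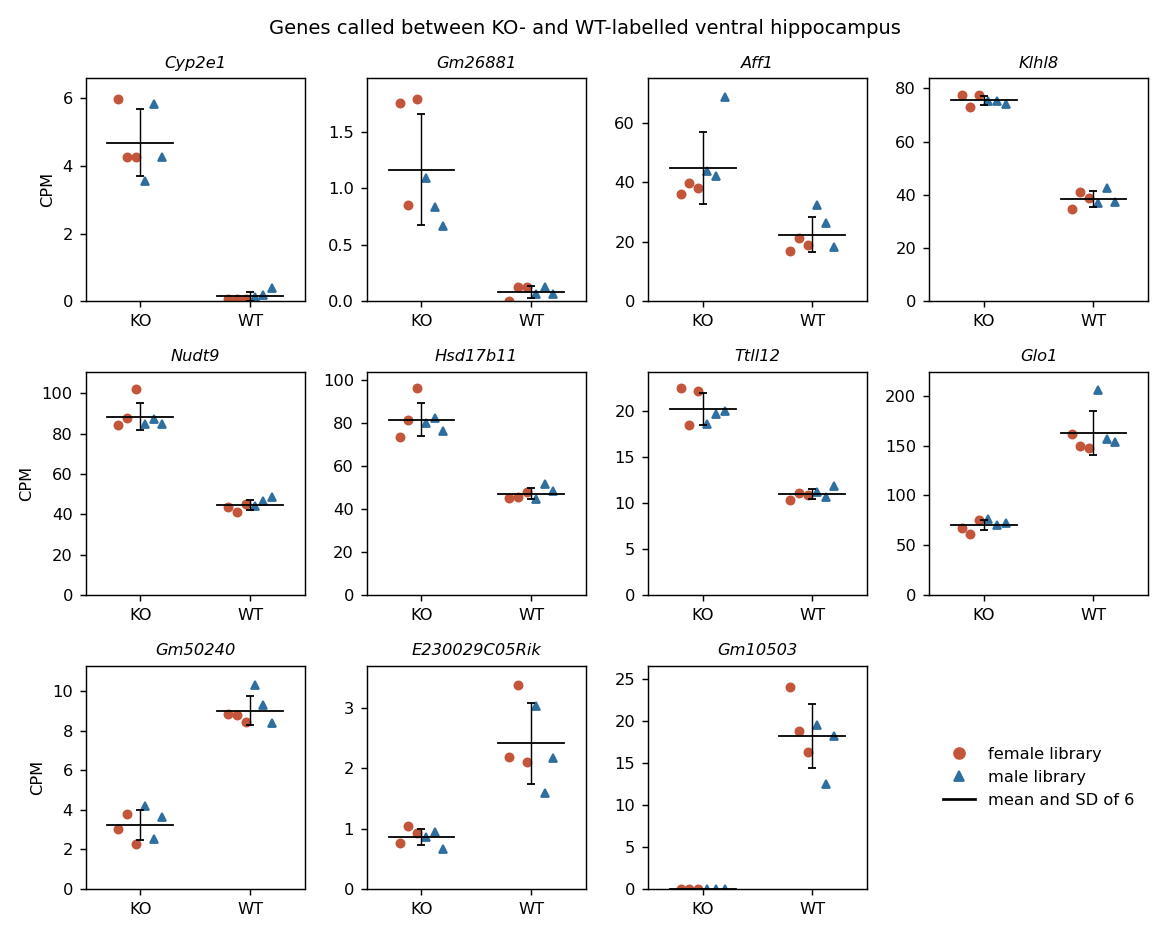
CPM in each library for 11 called genes, KO-labelled libraries at the left of each panel and WT-labelled libraries at the right, circles for females and triangles for males, with the mean and SD of 6. In each panel the 2 labels do not overlap, with 7 genes higher and 4 lower in KO-labelled libraries.

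On chromosome 17, Glo1 and 2 noncoding genes fell. Glo1, at 30803910 to 30845845, had lowest, median and highest levels of 61.8, 71.2 and 75.9 CPM in KO-labelled libraries, against 148, 155 and 206 CPM in WT-labelled libraries. The highest WT-labelled library was male WT 1, and no library crossed between the labels. The log2 change was -1.21 ± 0.08 (SE, n = 6 per label; edgeR, adjusted p = 5.4e-06), or 0.434 of the WT level. Hagh, glyoxalase 2, which completes the same pathway, averaged 61.8 ± 5.98 CPM in KO-labelled and 61.5 ± 7.54 CPM in WT-labelled libraries (SD) and was not called.

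Gm10503, a long noncoding RNA at 31139312 to 31182194, showed the widest gap. One KO-labelled library, female KO 2, held a single count and the other 5 held 0, while WT-labelled libraries held 196 to 375 counts. Their levels were 12.5 to 24.1 CPM with a median of 18.5 CPM in WT-labelled libraries. The summed counts were 1 for KO-labelled and 1701 for WT-labelled libraries, a ratio of 0.000509 with a 95% counting interval of 1.3e-05 to 0.0028 (edgeR, adjusted p = 2.7e-09). Gm50240, a second noncoding gene at 30795274 to 30801568, had 2.28, 3.34 and 4.18 CPM as lowest, median and highest levels in KO-labelled libraries, against 8.41, 8.82 and 10.3 CPM in WT-labelled libraries. Its groups did not overlap, with a log2 change of -1.48 ± 0.15 (SE; edgeR, adjusted p = 0.00041).

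Both noncoding genes share ground with coding genes on the opposite strand, and whether the counting used strand is not given in the sources used here. Gm50240 overlaps the start of Btbd9, whose log2 change was -0.23 ± 0.11 (SE) and was not called. Gm10503 overlaps Glp1r, the GLP-1 receptor, with a log2 change of -0.57 ± 0.44, and Umodl1, with -0.33 ± 0.40. Dnah8, an axonemal dynein heavy chain that overlaps the start of Glo1, averaged 1.16 ± 0.31 CPM in KO-labelled and 2.54 ± 0.71 CPM in WT-labelled libraries (SD). Its groups did not overlap, but its log2 change of -1.12 ± 0.24 was not called (SE; edgeR, adjusted p = 0.44). DESeq2 gave it an adjusted p of 0.025. Reads of such overlapping pairs may be split between them, so these values are uncertain. The same holds for Gm26881 and E230029C05Rik, described below. Gm26881 overlaps the start of Fam214b, whose log2 change was 0.13 ± 0.07 (SE). E230029C05Rik overlaps the start of Eed (0.01 ± 0.12) and spans a gene without a name (-1.06 ± 0.43). Fam214b, Eed and that gene were not called.

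The remaining called genes described here lay apart. Ttll12, on chromosome 15 at 83459291 to 83479358, encodes a tubulin-tyrosine-ligase-like protein. Its lowest, median and highest levels were 18.5, 19.8 and 22.5 CPM in KO-labelled libraries, against 10.3, 11.0 and 11.9 CPM in WT-labelled libraries. No library overlapped, and the log2 change was 0.88 ± 0.08 (SE; edgeR, adjusted p = 0.00011). None of its 24 tested neighbours within 1 Mb was called.

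Gm26881, a gene of unassigned function on chromosome 4 at 43045966 to 43053259, was near the counting floor under the WT label. It had 12 to 29 counts per KO-labelled library and 0 to 2 per WT-labelled library. The summed 122 and 8 counts gave a ratio of 13.2 with a 95% counting interval of 6.5 to 31.3 (edgeR, adjusted p = 0.0021). E230029C05Rik, on chromosome 7 at 89629906 to 89717979, summed to 94 counts in KO-labelled and 225 counts in WT-labelled libraries. Its level was 0.665 to 1.04 CPM in KO-labelled libraries, against 1.60 to 3.39 CPM in WT-labelled libraries, and the log2 change was -1.47 ± 0.22 (SE; edgeR, adjusted p = 0.019). That call was lost in 11 of 22 alternatives, among them without the 3 cerebellar-marker libraries (adjusted p = 0.11), while its log2 change stayed between -1.56 and -1.35.

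Some genes that edgeR did not call with the 12 libraries also separated the labels. Dcp1a, a cofactor of the mRNA decapping enzyme, averaged 17.7 ± 2.01 CPM in KO-labelled and 25.0 ± 1.11 CPM in WT-labelled libraries, without overlap (SD, n = 6 each). Its log2 change was -0.49 ± 0.08 (SE; edgeR, adjusted p = 0.056), and DESeq2 called it (adjusted p = 4.7e-05). Tigd2, a gene derived from a transposase, had a log2 change of -0.42 ± 0.08 (SE; edgeR, adjusted p = 0.16), and passed with DESeq2 (adjusted p = 0.0092) and with all 48 libraries in one edgeR model (adjusted p = 0.0017). Gba2, the non-lysosomal glucosylceramidase, had one of 0.25 ± 0.05 (SE; edgeR, adjusted p = 0.25), and passed with DESeq2 (adjusted p = 0.0089). With the 3 cerebellar-marker libraries left out, Dcp1a, Tigd2 and Gba2 were not called. Their log2 changes were then -0.57, -0.38 and 0.29.

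The other ethanol and aldehyde enzymes did not follow Cyp2e1. Of 13 tested members of that list, 1 was called, Cyp2e1 itself, and the median log2 change was -0.0042. Aldh2, the mitochondrial acetaldehyde dehydrogenase, averaged 107 ± 13.6 CPM in KO-labelled and 107 ± 8.38 CPM in WT-labelled libraries. Cat, the peroxisomal catalase that can also oxidise ethanol, averaged 41.3 ± 4.48 and, under the WT label, 42.9 ± 3.93 CPM. Adh5, the brain-expressed class III alcohol dehydrogenase, averaged 47.6 ± 3.51 CPM in KO-labelled and 47.8 ± 3.19 CPM in WT-labelled libraries (SD, n = 6 each). None of 21 other cytochrome P450 genes tested was called, and Cyp46a1, the neuronal cholesterol 24-hydroxylase, averaged 199 ± 43.5 CPM in KO-labelled and 196 ± 31.3 CPM in WT-labelled libraries. In the glutathione and NRF2 list, 1 of 30 was called, Glo1, and the other 29 each had an unadjusted p above 0.05. Nqo1 and Hmox1, which NRF2 induces under oxidative stress, had log2 changes of 0.07 ± 0.21 and 0.08 ± 0.20 (SE).

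Several other lists held members with an unadjusted p under 0.05, against 2.84% of all genes higher and 1.51% lower, but none of their members was called. The lists were chosen with earlier results of these data known. Of 23 tested glucocorticoid response genes, 5 (21.7%) were higher at that level and 0 were lower, with a median log2 change of 0.15. Plin4, a lipid-droplet coat protein, averaged 9.48 ± 2.64 CPM in KO-labelled and 5.54 ± 1.11 CPM in WT-labelled libraries (log2 0.78 ± 0.19 SE; edgeR, adjusted p = 0.81). Hif3a, a hypoxia-inducible factor subunit, averaged 9.95 ± 2.18 and, under the WT label, 6.30 ± 1.20 CPM (log2 0.67 ± 0.17 SE; edgeR, adjusted p = 0.81). Tsc22d3, which encodes GILZ, had a log2 change of 0.38 ± 0.11, Arrdc2 of 0.39 ± 0.14 and Sgk1 of 0.54 ± 0.21 (SE), and male KO 3 was the highest library for Sgk1 at 148 CPM. The receptor gene Nr3c1 averaged 121 ± 5.43 CPM in KO-labelled and 129 ± 10.1 CPM in WT-labelled libraries, and the classical target Fkbp5 had a log2 change of 0.10 ± 0.10 (SE). Without the 3 cerebellar-marker libraries the list had 3 higher, 1 lower and a median of 0.06. In the clock list, Per2 (log2 0.43 ± 0.12) and Per3 (0.24 ± 0.11), which feed back on the CLOCK complex, were the 2 of 23 with such a p.

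Antigen-presentation genes of MHC class II were lower in level but not called. Of 24 tested interferon and MHC genes, 4 (16.7%) were lower at an unadjusted p under 0.05, and these 4 were the class II genes and their invariant chain. Cd74, the invariant chain, had 2.98, 6.37 and 8.37 CPM as lowest, median and highest levels in KO-labelled libraries, against 7.36, 11.7 and 16.6 CPM in WT-labelled libraries. The labels overlapped, with a log2 change of -0.94 ± 0.26 (SE; edgeR, unadjusted p = 0.0027). H2-Aa, H2-Ab1 and H2-Eb1 had log2 changes of -1.23 ± 0.34, -1.09 ± 0.32 and -1.05 ± 0.36 (SE). The microglial list, by contrast, had 0 of 16 members at that level in either direction and a median of 0.02, and class I H2-K1 had a log2 change of -0.01 ± 0.13 (SE).

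Smooth-muscle and fibroblast genes were lower in level too, and none was called by edgeR with the 12 libraries, the low-count filter and sex and label as terms. Acta2, smooth-muscle actin, averaged 20.0 ± 8.19 CPM in KO-labelled and 40.6 ± 8.60 CPM in WT-labelled libraries (log2 -1.03 ± 0.25 SE; edgeR, adjusted p = 0.75), and Myh11, smooth-muscle myosin, averaged 20.1 ± 7.97 CPM in KO-labelled and 36.1 ± 7.95 CPM in WT-labelled libraries (log2 -0.84 ± 0.24 SE). Acta2 passed with DESeq2 (adjusted p = 0.016) and with edgeR without the low-count filter (adjusted p = 0.024). Of 11 tested meningeal fibroblast genes, 3 were lower at an unadjusted p under 0.05, namely Col3a1 (log2 -1.09 ± 0.33), Lum (-0.74 ± 0.21) and Dcn (-0.74 ± 0.25). The list's median was -0.45, and -0.09 without the 3 cerebellar-marker libraries. Its summed level ranged from 450 to 2035 CPM in KO-labelled and from 1042 to 2878 CPM in WT-labelled libraries, and the part of that spread in the class II and smooth-muscle values was not tested.

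None of the tested markers of the hippocampal fields and poles was called in that fit either. Of 14 tested ventral-pole genes, 4 (28.6%) were lower at an unadjusted p under 0.05, with a median of -0.22. They were Trhr, the thyrotropin-releasing hormone receptor (log2 -0.42 ± 0.12), Gpc3, a glypican (-0.57 ± 0.19), Efnb2, an ephrin ligand (-0.19 ± 0.09), and Dcn, which is also in the meningeal list. Of 14 dentate granule cell markers, 0 had such a p, and Prox1, their defining transcription factor, averaged 47.4 ± 7.28 CPM in KO-labelled and 58.5 ± 19.4 CPM in WT-labelled libraries. Leaving out the 3 cerebellar-marker libraries moved the dentate median to -0.43, while the ventral-pole median stayed at -0.22. That fit kept male WT 3 as the only male WT-labelled library. Its Prox1 level was 73.5 CPM, against 38.5 and 36.0 CPM in the omitted male WT 1 and male WT 2. The omitted male KO 3 had 53.8 CPM. The dorsal-pole list had 0 of 9 members at an unadjusted p under 0.05 with 12 libraries. Its median was -0.02, and -0.26 without the 3. Some genes passed only in other fits. Wfs1 was higher in KO-labelled libraries when only the 6 female libraries were fitted (log2 0.82; edgeR, adjusted p = 0.0076). Within males and without the 3, C1ql2 had a log2 change of -1.61, which rests on male WT 3 for the WT label. How much of each label's tissue came from each field was not measured.

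**Figure D4:**
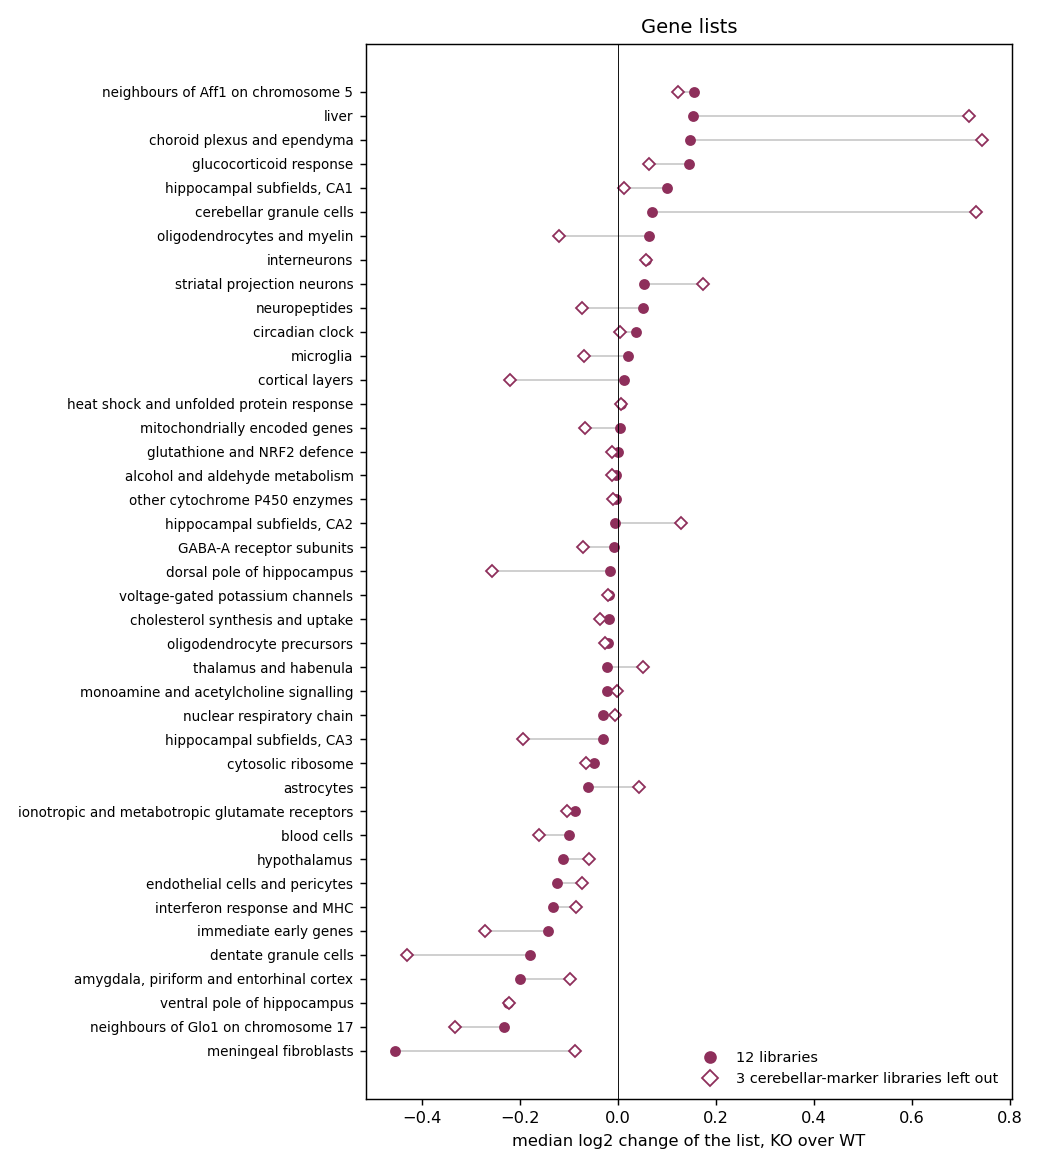
Median log2 change of KO-labelled over WT-labelled libraries for 41 gene lists, as filled circles with 12 libraries and as open diamonds with the 3 cerebellar-marker libraries left out. The dentate list moves to -0.43 and the meningeal list to -0.09 when those libraries are left out, while the ventral-pole list stays at -0.22. The cerebellar granule list moves from 0.07 to 0.73, and the choroid plexus and ependyma list from 0.15 to 0.74. The open diamonds rest on male WT 3 as the only male WT-labelled library.

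In the edgeR fit of the 12 libraries, none of 18 myelin, 10 oligodendrocyte precursor, 16 GABA-A receptor, 24 glutamate receptor, 18 neuropeptide, 23 cholesterol, 45 nuclear respiratory chain or 24 heat-shock genes was called or had an unadjusted p under 0.05. Their signs were not always even, with 18 of 24 glutamate receptor genes (median log2 -0.09) and 33 of 45 respiratory chain genes (median -0.03) on the lower side, and 14 of 18 myelin genes on the higher side. The myelin median was 0.06, and -0.12 without the 3 cerebellar-marker libraries. Of 63 tested cytosolic ribosome genes, 53 were on the lower side with 12 libraries (median -0.05), and 0 were called or had such a p. Immediate early genes, which neurons switch on within minutes of activity, spread widely under both labels. Fos was 5.55 to 101 CPM in KO-labelled libraries, against 6.10 to 104 CPM in WT-labelled libraries, and its lowest values were in the libraries numbered 1 in all 4 sex and label groups. Arc was 40.9 to 484 CPM in KO-labelled libraries, against 30.4 to 484 CPM in WT-labelled libraries.

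The label difference was tested between the sexes, and 0 genes passed an adjusted p of 0.05 by edgeR (0% of 17388), with 755 at an unadjusted p under 0.05 (4.34%). The smallest adjusted p was 0.95. DESeq2 called 1 gene, Prmt8, a neuronal arginine methyltransferase, whose edgeR log2 change was 0.13 ± 0.07 in females and -0.36 ± 0.07 in males (SE; DESeq2, difference of 0.51, adjusted p = 0.0082). The other 2 genes with the smallest p were Tmem132e, a transmembrane protein gene, with 0.29 ± 0.09 in females and -0.33 ± 0.09 in males, and the mitochondrial tyrosine tRNA mt-Ty, with -0.70 ± 0.22 in females and 0.68 ± 0.22 in males (SE). Within females 8 genes were called (0.046% of those tested), 5 higher (0.0288%) and 3 lower (0.0173%). Within males 7 were called (0.0403%), 5 higher (0.0288%) and 2 lower (0.0115%). Klhl8 had a log2 change of 1.00 ± 0.09 in females and 0.95 ± 0.09 in males, and Glo1 of -1.17 ± 0.12 in females and -1.24 ± 0.12 in males (SE, n = 3 per label and sex). Cyp2e1 had 6.08 ± 0.44 in females, where each WT-labelled library held 1 count, and 4.22 ± 0.37 in males, where they held 2, 3 and 6 (SE). The difference of those 2 values was not called (edgeR, adjusted p = 0.95).

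Ventral and dorsal hippocampus were compared in one fit of 24 libraries, 12 from each pole, which shared no library between the poles. The labels do not say whether both poles came from the same animals, and the fit held no pairing. The dorsal values may therefore not be an independent repeat. No gene differed between the poles in its label difference (0% of 18184 tested; edgeR, adjusted p of 0.05), with 476 at an unadjusted p under 0.05 (2.62%), and DESeq2 also called 0. All 13 genes called in ventral hippocampus were called in dorsal hippocampus in that fit. Klhl8 had a log2 change of 0.97 in ventral and 0.94 ± 0.05 in dorsal hippocampus, Nudt9 of 0.97 and, in dorsal, 0.95 ± 0.05, and Glo1 of -1.21 and, in dorsal, -1.22 ± 0.08 (SE). The ventral minus dorsal difference was 0.03 ± 0.07 for Klhl8, 0.01 ± 0.11 for Glo1 and -0.12 ± 0.19 for Aff1 (SE). For H2-Aa the log2 change was -1.24 in ventral and 0.42 ± 0.37 in dorsal hippocampus, and for Acta2 -1.03 in ventral and -0.04 ± 0.23 in dorsal hippocampus. Those differences between the poles, -1.66 ± 0.51 and -0.99 ± 0.33, had unadjusted p values of 0.0037 and 0.0065 and did not pass adjustment. Plin4 was called in dorsal hippocampus (log2 1.26 ± 0.24 SE; edgeR, adjusted p = 0.040), and its ventral minus dorsal difference was -0.48 ± 0.34.

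**Figure D5:**
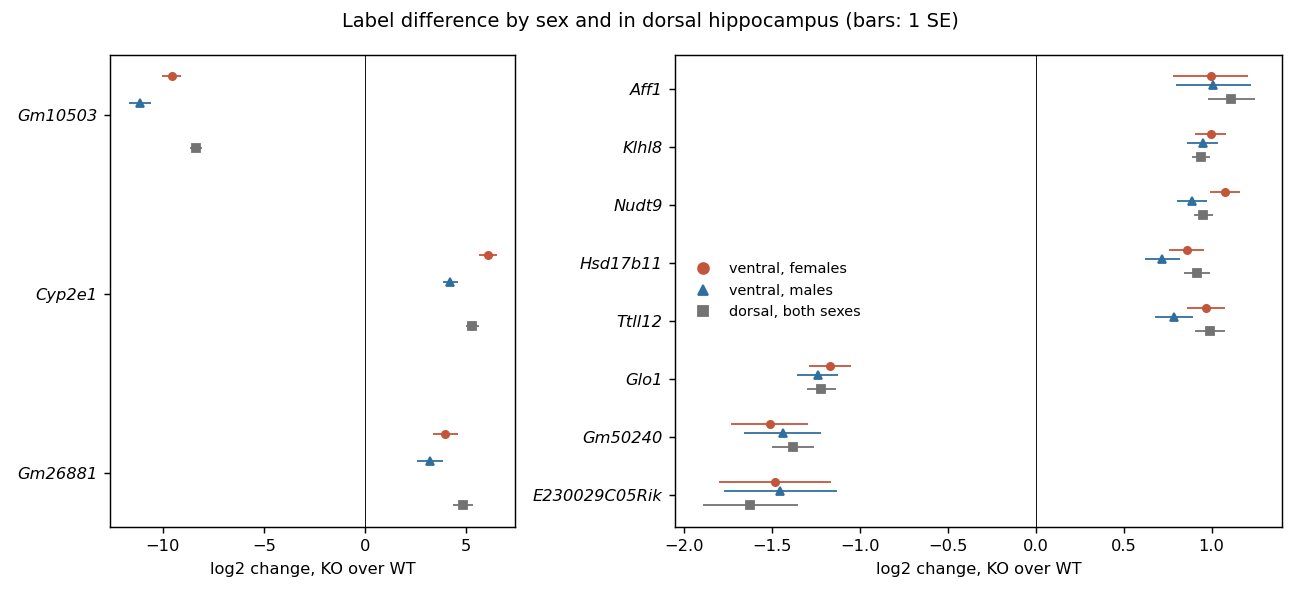
Log2 change of KO-labelled over WT-labelled libraries for 11 genes in ventral hippocampus of females and of males and in dorsal hippocampus of both sexes, with bars of 1 SE. For each gene the 3 values lie on the same side of 0, and Glo1 has -1.17 in females, -1.24 in males and -1.22 in dorsal hippocampus.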

How the data were processed

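The authors deposited one table of raw read counts per gene with gene positions and lengths, made with HISAT2 2.0.5 against mm39, and used DESeq2, per the submitters' processing notes. The counting tool and its strand setting are not given in the sources used here. From these counts, edgeR 4.0.16 in R 4.3.3 was fitted to the 12 ventral libraries (TMM scaling, filterByExpr with a minimum count of 10 and total of 15, sex and label as terms, quasi-likelihood F test, Benjamini-Hochberg adjustment, threshold 0.05). A mean per sex by label group gave the sex contrasts, and 24 libraries the ventral minus dorsal contrast. DESeq2 1.42.0 was an alternative. The SE is the log2 change divided by the root of F. Counting intervals are exact 95% intervals and cover counting error only. The code was tested on simulated data. Replicate numbers were not used to pair libraries. Over the 11659 genes with a mean count of 100 or more, the deviations of same-numbered libraries had a mean correlation of -0.007. It was -0.0006 for different numbers. The highest correlation, 0.76, joined male KO 3 and male WT 1, which both hold cerebellar markers. Whether the numbers mark a shared batch was not tested. Named genes are Cyp2e1, up to 15 called genes per direction by p (same sign in both sexes, mean count of 10 or more), the leading members of the lists described, out of 41 lists, and the 3 genes with the smallest p for the sex difference. Further list members, neighbours, library markers and uncalled genes that separated the labels were added after their values were seen. Some genes named by the rule, called ones included, are not reported here. Members and lists were chosen with earlier results of these data known.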

Additional observations from a re-analysis of the deposited data

Results flagged for a closer look

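Within the 6 libraries of a label, 1 library stood apart from the other 5 by Dixon's ratio at its 95% critical value in 16 of 118 gene and label groups looked at. Chance flags about 1 in 20 groups, but several marker genes were included because single libraries stood out in them, so the count is a description. Among called genes, Nudt9 was 102 CPM in female KO 3, against 84.0 to 87.5 CPM in the other KO-labelled libraries. Aff1 was 68.7 CPM in male KO 3, against 36.1 to 43.9 CPM in the others. Gm10503 had 0.0473 CPM in female KO 2, a single count, and 0 in the others. Glo1 was 206 CPM in male WT 1, against 148 to 162 CPM in the other WT-labelled libraries.

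Markers of other tissue made up much of the rest. In male KO 3, Gabra6 was 327 CPM, Cbln3 831 CPM and Ttr 517 CPM. In male WT 1, Ttr was 484 CPM and Slc6a4 0.194 CPM. In male WT 2, Col3a1 was 21.8 CPM, against 8.21 to 10.0 CPM in the other WT-labelled libraries. In male KO 1, Tph2 was 67.7 CPM and Slc6a4 45.7 CPM, and in female WT 2 Tph2 was 1.37 CPM. Sgk1 was 148 CPM in male KO 3, against 53.2 to 81.3 CPM in the others. In female KO 3, Glul, glutamine synthetase of astrocytes, was 1907 CPM against 1455 to 1584 CPM, and Aldh2 was 134 CPM against 97.8 to 108 CPM. No gene's label difference passed the adjusted test between the sexes or between the poles.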

How the results depend on the processing

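For the label comparison in ventral hippocampus, 13 genes were called, and DESeq2 called 21, all 13 included. Other settings gave 12 to 19 calls, namely 14 with RLE size factors, 16 without a low-count filter, 12 with a stricter one, 13 with a mean per group and 19 with all 48 libraries in one model. Chosen after seeing the data, leaving out the 3 cerebellar-marker libraries gave 12, leaving out male KO 1 too gave 13, and a granule-marker covariate gave 14. Leaving out each library in turn gave 11 to 13 calls for the label, 6 to 9 within females, 5 to 8 within males, and 0 to 0 for the sex difference and for ventral minus dorsal. With the 12 libraries the sex difference had 0 calls by edgeR, but 1 with DESeq2 (Prmt8). Without the 4 libraries, male KO 2 and male WT 3 were the only male libraries left. The female minus male difference of -2.19 for Malat1 in that fit therefore had no male replicate. Within females the 8 calls became 13 with DESeq2. Malat1 was not among the 8, but it was lower when only the 6 female libraries were fitted (log2 -1.04; edgeR, adjusted p = 0.00029). Without the low-count filter it also passed within females (log2 -1.04; edgeR, adjusted p = 0.048). Within males the 7 calls became 13 with DESeq2, 16 without the filter, and 0 when only the 6 male libraries were fitted (637 at an unadjusted p under 0.05). The cause was not tested. A replicate block was also tried. Over genes with a mean count of 100 or more, same-numbered KO with WT pairs of the same sex had r of -0.80 to 0.09. Over all same-numbered pairs the highest r was 0.51. Fos, Arc, Egr2, Npas4 and Btg2 were, however, lowest in the library numbered 1 of all 4 groups. With the block, the label comparison called 13 genes, 11 shared, females 7, males 5, and the sex and pole differences 0. Acta2 and Myh11 passed under that block (edgeR, adjusted p = 0.030 for both). Of the named called genes, Aff1 lost its call in 6 of 22 alternatives and E230029C05Rik in 11 of 22, and the other 9 kept theirs in each alternative that tested them, with no sign turned. The median SE of 0.13 on the log2 scale limits what could be called.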
